A study of Homo sapiens with 8 samples.

Results

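Epithelial cells keep their identity through a small set of RNA-binding proteins and transcription factors, and 9 genes for such regulators were examined across cultures of A549, an established human lung adenocarcinoma line. They are the splicing regulators ESRP1 and ESRP2, the RNA-binding protein gene RBM47, the grainyhead genes GRHL1, GRHL2 and GRHL3, the zinc finger genes OVOL1 and OVOL2, and the ETS factor gene EHF. Every probe set that the platform annotation assigns to 1 of these symbols alone was taken, which gave 21 probe sets for 8 of the 9 genes out of 54613 probe sets and 19775 genes tested. The probe set carrying ESRP2 is also annotated to a microRNA gene, so ESRP2 is named without a value. Where a gene has several probe sets, its main probe set is the one that averages highest across all 8 arrays.

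The cells were grown as spheroids (3D) or as monolayers (2D) and profiled on Affymetrix U133 plus 2.0 arrays. Spheroids were formed in hanging drops and then moved to plates coated to prevent attachment. Treated cultures received 10 ng/ml of the cytokine TNF together with 2 ng/ml of TGFβ, given in 2 rounds that lasted 48 h each, a treatment used to induce the epithelial-mesenchymal transition (EMT), and control cultures received vehicle. There were 2 arrays in each of 4 groups, 3D treated, 3D control, 2D treated and 2D control. The methods describe the pairs as technical duplicates and the deposited design text as biological replicates, so p-values measure only the spread between these arrays, which may be technical.

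ESRP1 and ESRP2 bind pre-mRNA and favour the exons that epithelial cells use in transcripts such as FGFR2 and CD44, and RBM47 affects splicing, RNA stability and RNA editing. Grainyhead factors, OVOL factors and EHF act on promoters and enhancers of epithelial genes, and GRHL2, OVOL1 and OVOL2 are known for a mutual antagonism with the EMT repressor ZEB1. EHF belongs to the ETS family, together with its relatives ELF3, ELF5 and SPDEF. In carcinoma cells these regulators are commonly high in the epithelial state and low after EMT.

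Values are log2 expression after GCRMA, the authors' background correction and summary of each probe set. The lowest value on every array was 2.23 and array medians lay between 2.43 and 2.50, so a probe set below the median on both arrays of a group is called near background. Of 6 keratin and adhesion markers of A549 (KRT7, KRT8, KRT18, KRT19, EPCAM and CDH1), 6 were above background in every group. Of 9 measured markers of leukocytes, endothelium and fibroblasts, 5 were near background in 3D treated cultures and 6 in each other group, and CD3E and CDH5 stood at 2.23 on all 8 arrays. The log2 values of those 9 markers summed to 26.1 to 30.1 on 3D treated arrays, 28.5 to 29.4 on 3D control arrays, 29.6 to 30.6 on 2D treated arrays and 29.2 to 30.2 on 2D control arrays. CD14, best known in monocytes, was above background in every group and is given with the treatment results. So were the endothelial marker PECAM1, with group means of 4.30 to 4.51, and the fibroblast marker LUM. LUM read 4.52 and 2.77 on the 3D treated arrays and 2.25 to 2.66 on the others. PDGFRA read 3.58 and 2.35 in 3D treated cultures and was near background in the other groups. Opposite moves of single markers can cancel in the sums.

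Among the splicing regulators, ESRP1 had no measurable signal in any culture. Both of its probe sets, 219121_s_at and 225846_at, read 2.23 on all 8 arrays, the lowest value of the scale, so no difference between groups was detectable. GRHL2, which in epithelial cells activates CDH1 and restrains ZEB1, likewise read 2.23 on all 8 arrays (219388_at). GRHL3, a grainyhead factor best known in skin barrier formation, read 2.23 on every array as well (232116_at). For these 3 genes the arrays give only an upper bound on the level, with no value that could separate treated from control cells. Constant readings were common, as 28.0% of all tested probe sets had the same value on all 8 arrays.

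GRHL1, a grainyhead factor of desmosomal gene control, was also near background with 1 exception. Its main probe set 222830_at read 2.43 on 2D treated replicate 1 and 2.23 on the other 7 arrays, and its second probe set 1552685_a_at read 2.24 throughout. OVOL2, a zinc finger repressor of mesenchymal genes, read 2.63 on 3D control replicate 2 and 2.46 on the other 7 arrays of its main probe set 211778_s_at. Its second probe set 206048_at lay at 2.41 except for 2.46 on 2D treated replicate 1. These values sit close to the array medians, and in each case a single array departs from an otherwise constant reading.

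OVOL1, a zinc finger repressor of the same family, was slightly above the array medians on all 8 arrays. Its main probe set 229396_at read 3.25 and 3.25 in 3D treated cultures against 3.33 and 3.25 in 3D controls. In 2D it read 3.29 and 3.25 in treated cultures against 3.17 and 3.18 in controls. The 8 readings spanned 0.16 on the log2 scale. In limma OVOL1 differed by 0.10 between 2D treated and 2D control cultures (adjusted p = 0.438) and by 0.12 between 3D and 2D controls (adjusted p = 0.101), neither past the threshold of 0.05. Its other probe set, 206604_at, read 2.23 throughout.

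EHF and RBM47 were the 2 members with a clear signal, as the plot of every probe set by array shows. Of the 10 member probe sets above the array median on all 8 arrays, 5 belong to EHF, 4 to RBM47 and 1 to OVOL1. The group means of the main probe set spanned 3.25 on the log2 scale for EHF and 2.09 for RBM47, against at most 0.12 for the other 6 genes.

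**Figure D1:**
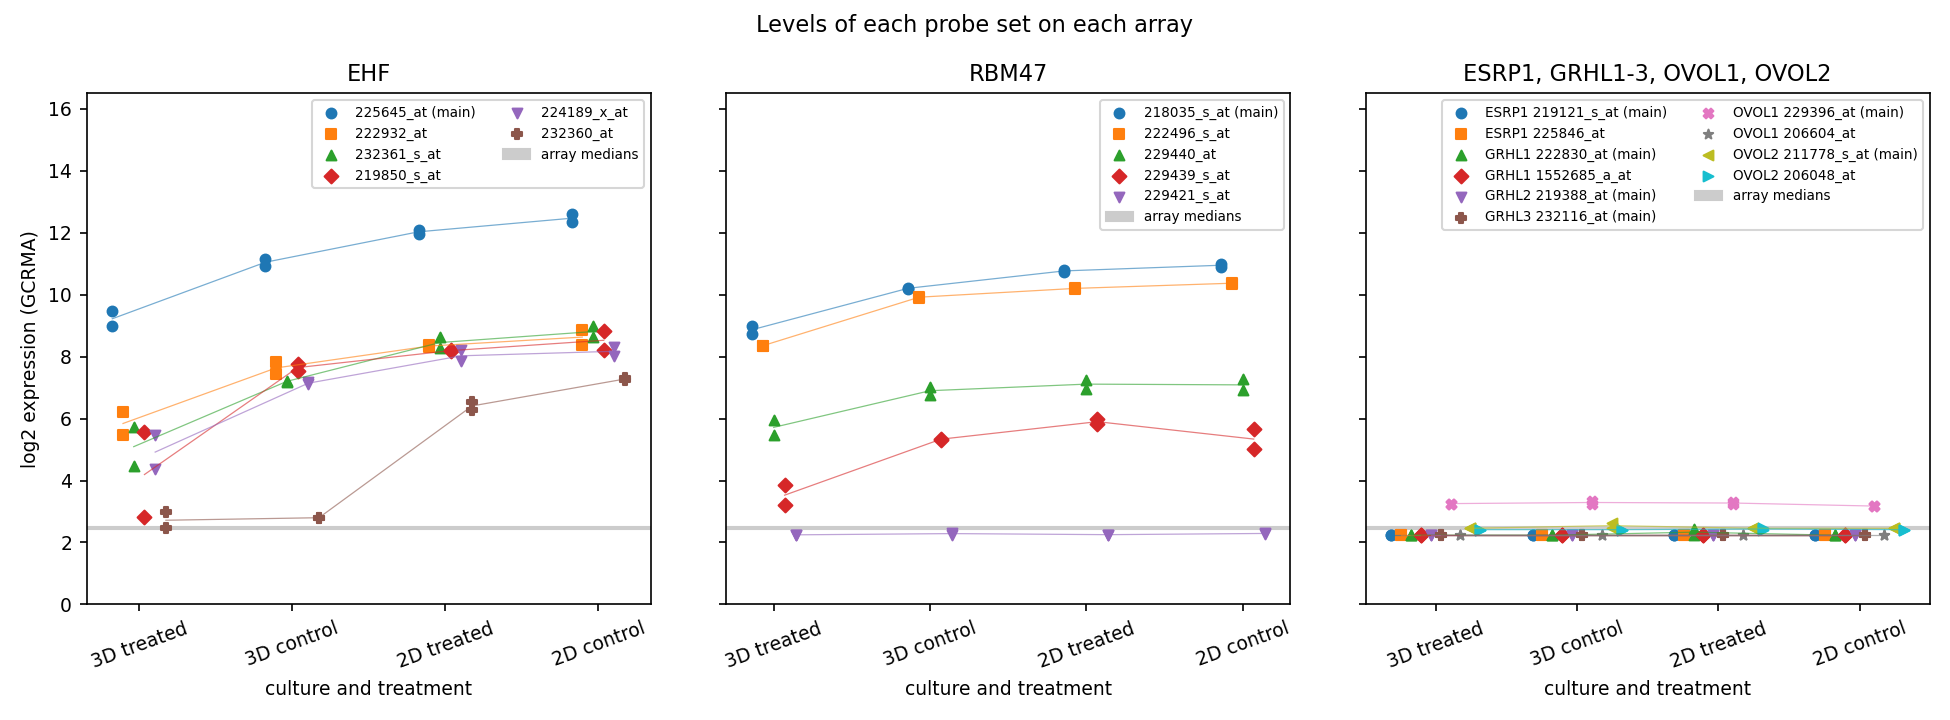
Log2 expression (vertical axis) of every probe set of EHF, of RBM47 and of the other 6 measured genes on each array, by culture and treatment; points are arrays, lines join the group means and the grey line marks the array medians. The main probe sets of EHF and RBM47 lie far above the medians in all groups and lowest in 3D treated cultures, with EHF 225645_at at 9.47 and 8.98 there, RBM47 229421_s_at stays at 2.24 to 2.32, and the other genes lie between 2.23 and 3.33.

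RefSeq start site windows (GRCh38.p14, 250 bases before to 50 after a start) were matched for 4 of the members, RBM47, GRHL1, GRHL3 and EHF, with 9 windows in all. They were searched on both strands for CACCTG, the E-box that ZEB and SNAI repressors recognise, for the grainyhead motif AACCGGTT and for the ETS motif CCGGAAGT, and no match of one motif overlapped another in these windows. The E-box occurred in 2 of the 9 windows, beside 20.6% of all 35116 windows of this length. The grainyhead and ETS motifs occurred in 0 of the 9, beside 0.134% and 4.14% of all windows. The 3 windows below are shown because they contrast a brightly expressed gene with an E-box (RBM47, chr4:40514532-40514831, minus strand), a brightly expressed gene without one (EHF, chr11:34624007-34624306, plus strand) and a gene at the bottom of the scale with a pair of E-boxes (GRHL3, chr1:24319107-24319406, plus strand). Each begins upstream of an annotated start of its gene and reads 5′ to 3′ along the gene, and capitals mark the E-box.
RBM47: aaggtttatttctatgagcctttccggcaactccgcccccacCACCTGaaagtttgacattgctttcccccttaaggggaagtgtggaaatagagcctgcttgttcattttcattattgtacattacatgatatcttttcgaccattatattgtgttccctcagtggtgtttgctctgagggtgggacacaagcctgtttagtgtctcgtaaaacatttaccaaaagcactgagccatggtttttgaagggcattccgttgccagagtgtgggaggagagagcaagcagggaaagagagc
EHF: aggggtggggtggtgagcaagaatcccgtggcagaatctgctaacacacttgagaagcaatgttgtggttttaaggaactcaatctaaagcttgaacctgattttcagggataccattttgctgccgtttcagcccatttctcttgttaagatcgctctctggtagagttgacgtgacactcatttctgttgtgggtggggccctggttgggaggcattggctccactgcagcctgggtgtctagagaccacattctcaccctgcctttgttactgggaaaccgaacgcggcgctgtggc
GRHL3: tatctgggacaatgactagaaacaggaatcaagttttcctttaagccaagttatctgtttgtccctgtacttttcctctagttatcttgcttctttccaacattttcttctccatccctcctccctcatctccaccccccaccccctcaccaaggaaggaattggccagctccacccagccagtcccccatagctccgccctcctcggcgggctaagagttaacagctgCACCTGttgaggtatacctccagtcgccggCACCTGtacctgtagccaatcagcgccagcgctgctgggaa
The E-box of RBM47 begins 208 bases upstream of the start, and those of GRHL3 begin 21 bases upstream of the start and at base 10 after it. The other 3 RBM47 windows, the second EHF window, the second GRHL3 window and the GRHL1 window held no match. A match describes the letters of a window and no more.

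Of the RNA-binding proteins, RBM47 fell with cytokine treatment in spheroids. Its main probe set 218035_s_at read 8.99 and 8.74 in 3D treated cultures, against 10.20 and 10.22 in 3D controls. The treated and control arrays did not overlap, and the treated ones were the lowest of all 8. With 2 arrays per group, arrays also failed to overlap where a difference did not pass, as for this probe set in monolayers. The level averaged 8.87 ± 0.18 in 3D treated and 10.21 ± 0.01 in 3D control cultures (SD, n = 2 arrays each), a log2 difference of −1.34 (standard error 0.10, 95% confidence interval −1.60 to −1.08, limma adjusted p = 0.00597), or 2.53-fold lower (2.12- to 3.03-fold). In bulk samples fewer cells expressing a gene and less of its RNA per cell cannot be told apart. The call held in each of the 8 fits that left out 1 array and ended when the 3D arrays were fitted alone (limma adjusted p = 0.0847). A fit without 1 array leaves 1 array in that group, whose pair then adds nothing to the spread. A call that held in such fits, here and below, is thus a limited check.

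The other RBM47 probe sets above background also read lower after treatment of spheroids. Probe set 222496_s_at read 8.35 and 8.36 in 3D treated cultures against 9.91 and 9.94 in 3D controls, a log2 difference of −1.57 in limma (adjusted p = 4.36e-05). Probe set 229439_s_at, dimmer, read 3.21 and 3.85 against 5.36 and 5.32, a difference of −1.81 (limma adjusted p = 0.0362). Both fell, but the call of 229439_s_at ended in 7 of the 8 fits without 1 array, all but that without 3D treated replicate 2 (limma adjusted p up to 0.143). Probe set 229440_at read 5.96 and 5.47 against 6.77 and 7.03 and did not pass (−1.18, limma adjusted p = 0.058). The fifth, 229421_s_at, was near background at 2.24 to 2.32.

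EHF, an ETS factor of secretory and glandular epithelium, also fell in treated spheroids. Its main probe set 225645_at read 9.47 and 8.98 in 3D treated cultures, against 11.17 and 10.93 in 3D controls. The groups did not overlap, and both treated arrays were below every other array. The level averaged 9.23 ± 0.35 in 3D treated and 11.05 ± 0.16 in 3D control cultures (SD, n = 2 arrays each), a log2 difference of −1.82 (standard error 0.21, 95% confidence interval −2.40 to −1.25, limma adjusted p = 0.0154), or 3.54-fold lower (2.38- to 5.26-fold). The call ended without 3D control replicate 1 (limma adjusted p = 0.0693), without 3D control replicate 2 (0.0565), and when the 3D arrays were fitted alone (0.129).

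Of the 5 EHF probe sets above the median on all arrays, 5 read lower in 3D treated cultures and 3 passed in limma, with differences from −3.45 to −1.79. Probe set 222932_at read 6.21 and 5.48 in 3D treated cultures against 7.45 and 7.82 in 3D controls (−1.79, limma adjusted p = 0.0419). Probe set 224189_x_at read 5.47 and 4.36 against 7.12 and 7.17 (−2.23, limma adjusted p = 0.0432). These calls ended in 7 and 6 of the 8 fits without 1 array (limma adjusted p up to 0.166 and 0.165), holding without 3D treated replicate 1 in both cases and also without 3D treated replicate 2 for 224189_x_at. The widest spread was in 219850_s_at, at 5.58 and 2.81 in 3D treated cultures against 7.54 and 7.75 in 3D controls, where the difference of −3.45 did not pass (limma adjusted p = 0.119). Without 3D treated replicate 1 the difference was −4.83, and without 3D treated replicate 2 it was −2.07. Either fit leaves 1 treated array, so the disagreement of the pair drops out of the spread and no call is drawn.

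Members passing in the 3D comparison numbered 2 lower and 0 higher of 8 by main probe set, beside 10.8% of all genes lower and 5.53% higher. Of the 9 brighter EHF and RBM47 probe sets, 6 were called lower, beside 6.66% of all probe sets. These 9 are repeat readings of 2 genes on the same arrays. Here and in the comparisons below they do not count as separate results. The 2 genes are among the brighter ones, and of the 12661 genes with a main probe set above the median on at least 2 arrays 16.8% were called lower. RBM47 had the smaller difference in size, and 689 of 19775 genes had a lower one than RBM47 and 279 a lower one than EHF. Median differences were −0.02 for the members, 0 for all genes and −0.12 for the brighter genes.

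**Figure D2:**
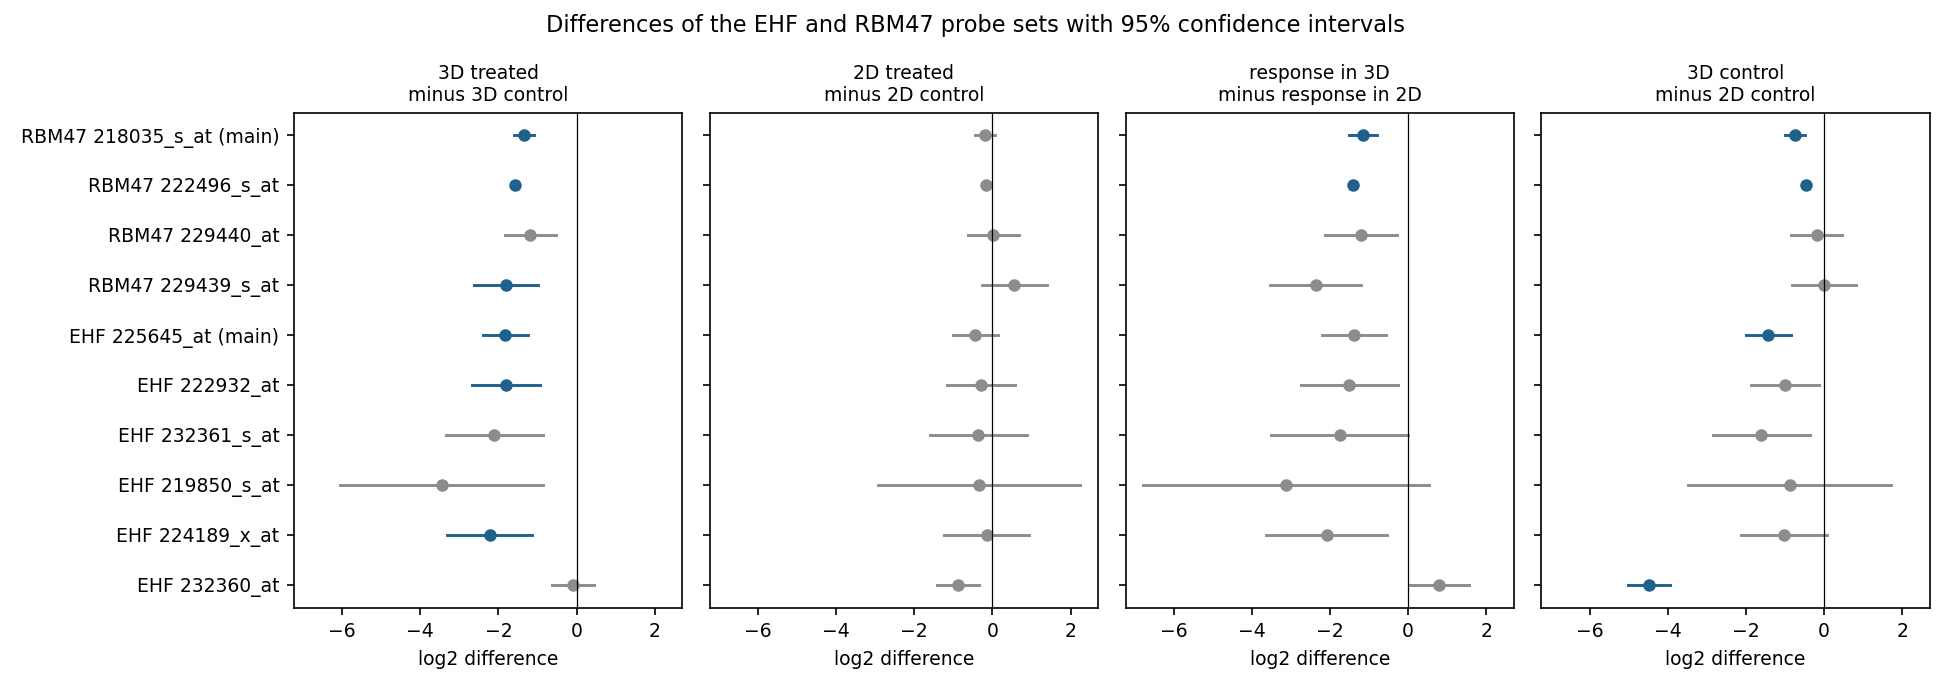
Log2 differences of the RBM47 and EHF probe sets other than the near-background RBM47 229421_s_at, with 95% confidence intervals from limma (horizontal axis) in the 4 comparisons; blue points passed at an adjusted p of 0.05 and grey points did not. In spheroids 9 of the 10 probe sets drawn lie between −3.45 and −1.18 and 6 are called, in monolayers none is called, and EHF 232360_at stands apart at −4.48 between 3D and 2D controls.

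In monolayers the same cytokines changed neither gene past the threshold. RBM47 218035_s_at read 10.73 and 10.81 in 2D treated cultures, against 11.00 and 10.91 in 2D controls. Its log2 difference was −0.18 (95% confidence interval −0.44 to 0.08, limma adjusted p = 0.91). EHF 225645_at read 12.10 and 11.96 in 2D treated cultures, against 12.61 and 12.34 in 2D controls. The treated arrays lay just below the control arrays for both genes, and for EHF the difference was −0.44 (95% confidence interval −1.01 to 0.13, limma adjusted p = 0.846). A fall of up to 0.44 for RBM47 and 1.01 for EHF lies within these intervals.

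No member passed in 2D, with 0 of 8 higher and 0 lower, beside 0.121% and 0.0759% of all genes, and 0 of the 9 brighter EHF and RBM47 probe sets were called lower, beside 0.101% of all probe sets. At an unadjusted limma p under 0.05 there were 1 member higher (OVOL1) and 0 lower by main probe set. The probe set nearest to the threshold was RBM47 222496_s_at, at 10.20 and 10.21 in 2D treated cultures against 10.38 and 10.36 in 2D controls. Its difference was −0.17 (limma adjusted p = 0.0562). It was −0.16 without 2D control replicate 1 and −0.18 without 2D control replicate 2, fits that leave 1 control array and from which no call is drawn. RBM47 229439_s_at pointed the other way, at 5.82 and 5.98 against 5.03 and 5.65, a difference of 0.56 that did not pass (limma adjusted p = 0.92). The brighter EHF probe sets read lower by 0.15 to 0.44 and none passed.

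The response of RBM47 differed between the culture types. The difference between its 3D and its 2D response was −1.16 for 218035_s_at (standard error 0.14, 95% confidence interval −1.53 to −0.79, limma adjusted p = 0.0403) and −1.40 for 222496_s_at (limma adjusted p = 0.000227). The second of these held in each of the 8 fits without 1 array. The first ended in 6 of them, without either 2D control array, either 2D treated array or either 3D control array (limma adjusted p = 0.0679 to 0.0967). For 229440_at and 229439_s_at the differences of −1.21 and −2.37 did not pass (limma adjusted p = 0.199 and 0.0882).

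For EHF the difference between the responses was −1.39 (standard error 0.30, 95% confidence interval −2.19 to −0.58), which did not pass in limma (adjusted p = 0.12). Without 3D treated replicate 1 it was −1.63, in a fit that leaves 1 treated array in 3D and from which no call is drawn. It passed after dim probe sets were left out (limma adjusted p = 0.0347). Thus 1 of 8 members was called with a lower response in 3D and 0 with a higher one, beside 1.94% and 1.32% of all genes. Of the 9 brighter EHF and RBM47 probe sets 2 were called lower, both of RBM47, beside 1.2% of all probe sets and 2.98% of the 12661 brighter genes.

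Spheroid culture alone, without cytokines, also went with lower levels of both genes. EHF 225645_at read 11.17 and 10.93 in 3D controls, against 12.61 and 12.34 in 2D controls. That is a log2 difference of −1.42 (95% confidence interval −1.99 to −0.85, limma adjusted p = 0.0366), or 2.68-fold lower. RBM47 218035_s_at read 10.20 and 10.22 in 3D controls, against 11.00 and 10.91 in 2D controls. It was 1.68-fold lower, with a difference of −0.74 (standard error 0.10, limma adjusted p = 0.0275). In both genes the arrays of the 2 groups did not overlap. Each call ended in 6 of the 8 fits without 1 array, those without a 2D control, 2D treated or 3D control array (limma adjusted p up to 0.141 for EHF and 0.106 for RBM47), and held without either 3D treated array. Both ended when the control arrays were fitted alone (limma adjusted p = 0.125 for EHF and 0.0753 for RBM47).

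By this comparison 2 of 8 members were called lower and 0 higher, beside 4.9% and 5.77% of all genes. Of the 9 brighter probe sets, again repeat readings of 2 genes, 3 were called lower, beside 3.57% of all probe sets. Of the 12661 brighter genes 7.61% were called lower. RBM47 222496_s_at was among them, at 9.91 and 9.94 in 3D controls against 10.38 and 10.36 in 2D controls (−0.45, limma adjusted p = 0.00191). The dimmer RBM47 229440_at and 229439_s_at differed by −0.19 and by less than 0.01 in size and did not pass. The 3D controls are shared with the treatment comparison above, so both sets of values rest in part on the same arrays.

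Probe set 232360_at of EHF behaved unlike the other 5. It read 2.98 and 2.46 in 3D treated and 2.80 and 2.80 in 3D control cultures, against 6.28 and 6.54 in 2D treated and 7.24 and 7.32 in 2D control cultures. The spheroid arrays lay near the array medians and the monolayer arrays well above them. Between 3D and 2D controls it differed by −4.48 (standard error 0.20, 95% confidence interval −5.02 to −3.95, limma adjusted p = 0.00498), beside −1.61 to −0.88 for the 5 brighter EHF probe sets, and no fold is given against readings so close to the medians. In 3D its treatment difference was −0.08 (limma adjusted p = 1), with both groups close to the array medians. In 2D it read lower after treatment by 0.87 (95% confidence interval −1.41 to −0.34), which did not pass (limma adjusted p = 0.315), and the difference between the responses, 0.79, had the opposite sign to that of the other 5 and did not pass either (0.296). What sets 232360_at apart from the rest was not tested.

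Across the 4 groups the main probe set of EHF was lowest in 3D treated, then 3D control, 2D treated and 2D control cultures, with means of 9.23 ± 0.35, 11.05 ± 0.16, 12.03 ± 0.10 and 12.47 ± 0.19 (SD, n = 2 arrays each). RBM47 had the same order, with means of 8.87 ± 0.18, 10.21 ± 0.01, 10.77 ± 0.06 and 10.95 ± 0.07. In each gene the 2 monolayer groups were the neighbours whose difference did not pass. The step between 3D control and 2D treated cultures, which differ in both culture and cytokines, was not tested.

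The genes whose profile over the 8 arrays was closest to that of EHF were MID1, ZNRF3, TBC1D4, ANK3 and TGFBR3, of 12660 candidates. Likeness was the root mean square difference between log2 values centred on each gene's own mean, and it was 0.122 for MID1, a microtubule-associated ubiquitin ligase, and 0.172 for ZNRF3, a membrane ubiquitin ligase that limits Wnt receptors. It was 0.172 for the Rab GTPase activator TBC1D4, 0.191 for the membrane adaptor ANK3 and 0.193 for the TGFβ co-receptor TGFBR3. All 5 were lowest in 3D treated cultures and highest in 2D controls, and MID1 averaged 10.64 in 3D treated, 12.36 in 3D control, 13.46 in 2D treated and 13.75 in 2D control cultures. RBM47 ranked 160th by this measure, at 0.454, with a Pearson correlation to EHF of 0.993 over the 8 arrays. For the 5 closest genes, in the order above, that correlation was 0.996, 0.995, 0.992, 0.989 and 0.988. By correlation RBM47 was thus not further from EHF than all 5. The points share arrays, groups and normalization, so these values are descriptions.

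**Figure D3:**
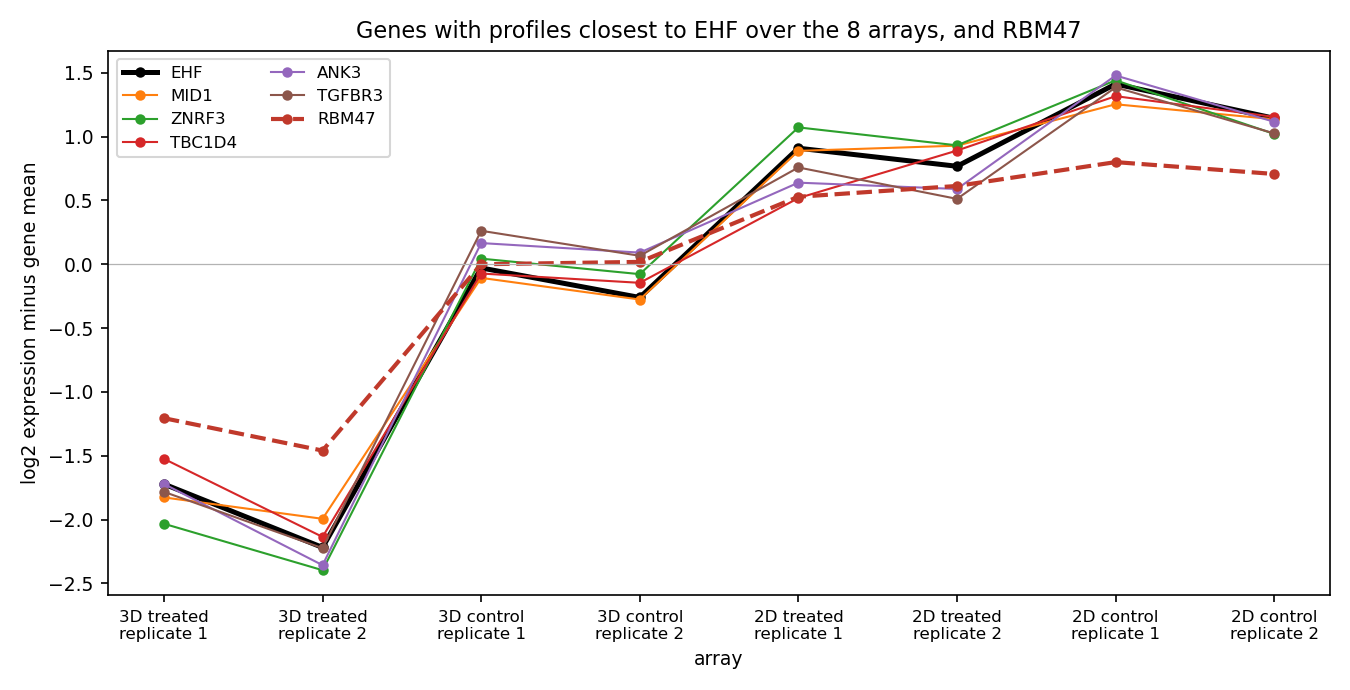
Log2 expression minus the gene's own mean (vertical axis) on each of the 8 arrays (horizontal axis) for EHF, the 5 genes closest to it and RBM47; each line is 1 gene. EHF runs between −2.22 on 3D treated replicate 2 and 1.41 on 2D control replicate 1, and the dashed RBM47 line has the same order of groups with a smaller span, −1.46 to 0.80.

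Among 9 relatives of the members by family, SPDEF and A1CF fell in treated spheroids, with 2 lower, 0 higher and 7 not passing. SPDEF, an ETS factor of goblet and other secretory cells, read 5.83 and 6.07 in 3D treated cultures against 7.84 and 7.80 in 3D controls (−1.87, limma adjusted p = 0.00643). In 2D it read 6.75 and 6.46 in treated cultures against 8.21 and 8.37 in controls, and the difference of −1.69 did not pass (limma adjusted p = 0.0621). A1CF, an RNA-binding cofactor of RNA editing that is similar in sequence to RBM47, read 8.63 and 8.52 in 3D treated cultures against 9.54 and 9.77 in 3D controls (−1.08, limma adjusted p = 0.0123). Between 3D and 2D controls neither passed (−0.47 and −0.26, limma adjusted p = 0.154 and 0.334). Both treatment calls held without any single array. The A1CF probe set with the largest treatment difference in 3D stood at −1.25 and did not pass (limma adjusted p = 0.0578).

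ELF3, an epithelial ETS factor of the same subfamily as EHF, was higher in spheroids than in monolayers. It read 12.22 and 12.28 in 3D controls against 10.59 and 10.86 in 2D controls, a log2 difference of 1.52 (limma adjusted p = 0.0227), whereas EHF was lower in spheroids. The ELF3 call ended in 6 of the 8 fits without 1 array (limma adjusted p up to 0.0902) and held without either 3D treated array. With treatment ELF3 read 11.20 and 11.62 in 3D treated cultures and did not pass (−0.84, limma adjusted p = 0.0583). Of the grainyhead relatives, TFCP2L1 and UBP1 were lower in 3D than in 2D controls (−1.24 and −0.60, limma adjusted p = 0.0421 and 0.0494), with calls that each ended in 6 of 8 fits without 1 array. ELF5, OVOL3 and RBM46 were near 2.23 on all arrays.

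Of 6 EMT repressors, ZEB1, ZEB2 and SNAI2 rose in treated spheroids, where EHF and RBM47 fell, TWIST2 fell, and SNAI1 and TWIST1 did not pass. ZEB2 read 6.73 and 6.19 in 3D treated cultures against 2.35 and 2.41 in 3D controls, which were near background, so it was at least 16.3-fold higher (limma adjusted p = 0.00262). ZEB1 read 9.69 and 9.65 against 8.28 and 8.27 (1.39, limma adjusted p = 0.00376). SNAI2 read 9.15 and 8.18 against 4.39 and 4.82 (4.06, limma adjusted p = 0.00887). For these 3 genes the groups did not overlap, and their calls held without any single array. TWIST2 was lower by 0.51 (limma adjusted p = 0.0314), a call that ended in 6 of the 8 fits without 1 array. In 2D 0 of the 6 passed in limma (2 higher at an unadjusted p under 0.05). The test of 3D against 2D responses passed for ZEB1 (1.08, limma adjusted p = 0.0323), SNAI2 (4.07, 0.0453) and ZEB2 (0.014). No size is given for ZEB2, whose controls were near background in both cultures, and SNAI2 read 2.45 to 2.53 on the 2D arrays, close to the medians. The response calls of ZEB1 and SNAI2 ended in 4 and 6 of the 8 fits without 1 array. Between 3D and 2D controls SNAI2 was called higher (2.11, limma adjusted p = 0.0472), a call that also ended in 6 of the 8 fits. ZEB1 and GRHL2, known antagonists, could not be set against each other, since GRHL2 had no measurable signal in any group.

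Genes known as targets of GRHL2 were called in both directions in treated spheroids, with 3 of 10 lower, 2 higher and 5 not passing. ERBB3, a receptor of the EGF receptor family, read 9.30 and 9.31 in 3D treated cultures against 11.30 and 11.26 in 3D controls (−1.97, limma adjusted p = 0.00287), and its call held without any single array. The adhesion gene CDH1 read 11.71 and 11.99 against 12.83 and 12.69 (−0.91, limma adjusted p = 0.0155), a call that ended without 3D control replicate 1 (0.066) or 3D control replicate 2 (0.0507). EPCAM fell by 2.20 (limma adjusted p = 0.0402) and the tight junction gene CLDN4 was higher by 1.77 (limma adjusted p = 0.036), with calls that ended in 7 and 6 of the 8 fits without 1 array. CDH3 was called higher by 0.12 with every group near background (limma adjusted p = 0.0277), and its call ended in 6 of the 8 fits without 1 array (up to 0.117), with quantile normalization (0.0667) and with array medians subtracted (0.128). RAB25 and PRSS8 read 2.23 on all arrays, as did GRHL2 itself. ERBB3 was the 1 target of the 10 for which the test of 3D against 2D responses passed (−1.62, limma adjusted p = 0.0207). With the 3D arrays fitted alone, ERBB3 and ZEB1 kept their treatment calls and the other calls of the targets, the repressors and the relatives ended (limma adjusted p = 0.0536 to 0.228).

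Of 5 measured transcripts that ESRP proteins splice, 1 fell and 4 did not pass. EXOC7, a subunit of the exocyst, read 8.06 and 7.93 in 3D treated cultures against 9.02 and 9.10 in 3D controls (−1.06, limma adjusted p = 0.00987), a call that held without any single array and ended with the 3D arrays fitted alone (0.0689). CD44 was bright, at 13.93 and 13.87 in 3D treated cultures against 13.84 and 13.82 in 3D controls, and did not pass (0.07, limma adjusted p = 0.205). Between 3D and 2D controls CD44 was called lower (−0.46, limma adjusted p = 0.00693). That call held without any single array and ended with the control arrays fitted alone (0.0618). The CD44 probe set with the largest difference between these controls stood at −2.53 and did not pass (limma adjusted p = 0.0726). These are levels of the gene's probe set and do not measure exon use. Of 12 other splicing factors studied in EMT, 0 passed in the 3D comparison in limma, with 2 higher and 2 lower at an unadjusted p under 0.05. The nearest to the threshold were RBFOX2 (0.23, limma adjusted p = 0.0704), PTBP2 (−0.68, 0.0806) and QKI (0.25, 0.0964). RBM47 was thus the 1 called gene among the measured splicing regulators of the members and that list. In 3D against 2D controls SRSF1, an SR protein, was lower by 1.35 and CELF1 by 0.44 and KHDRBS1 was higher by 0.38 (limma adjusted p = 0.0238, 0.0426 and 0.0306). Each call ended in 6 of the 8 fits without 1 array. The SRSF1 probe set with the largest difference stood at −2.85 and did not pass (limma adjusted p = 0.175).

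**Figure D4:**
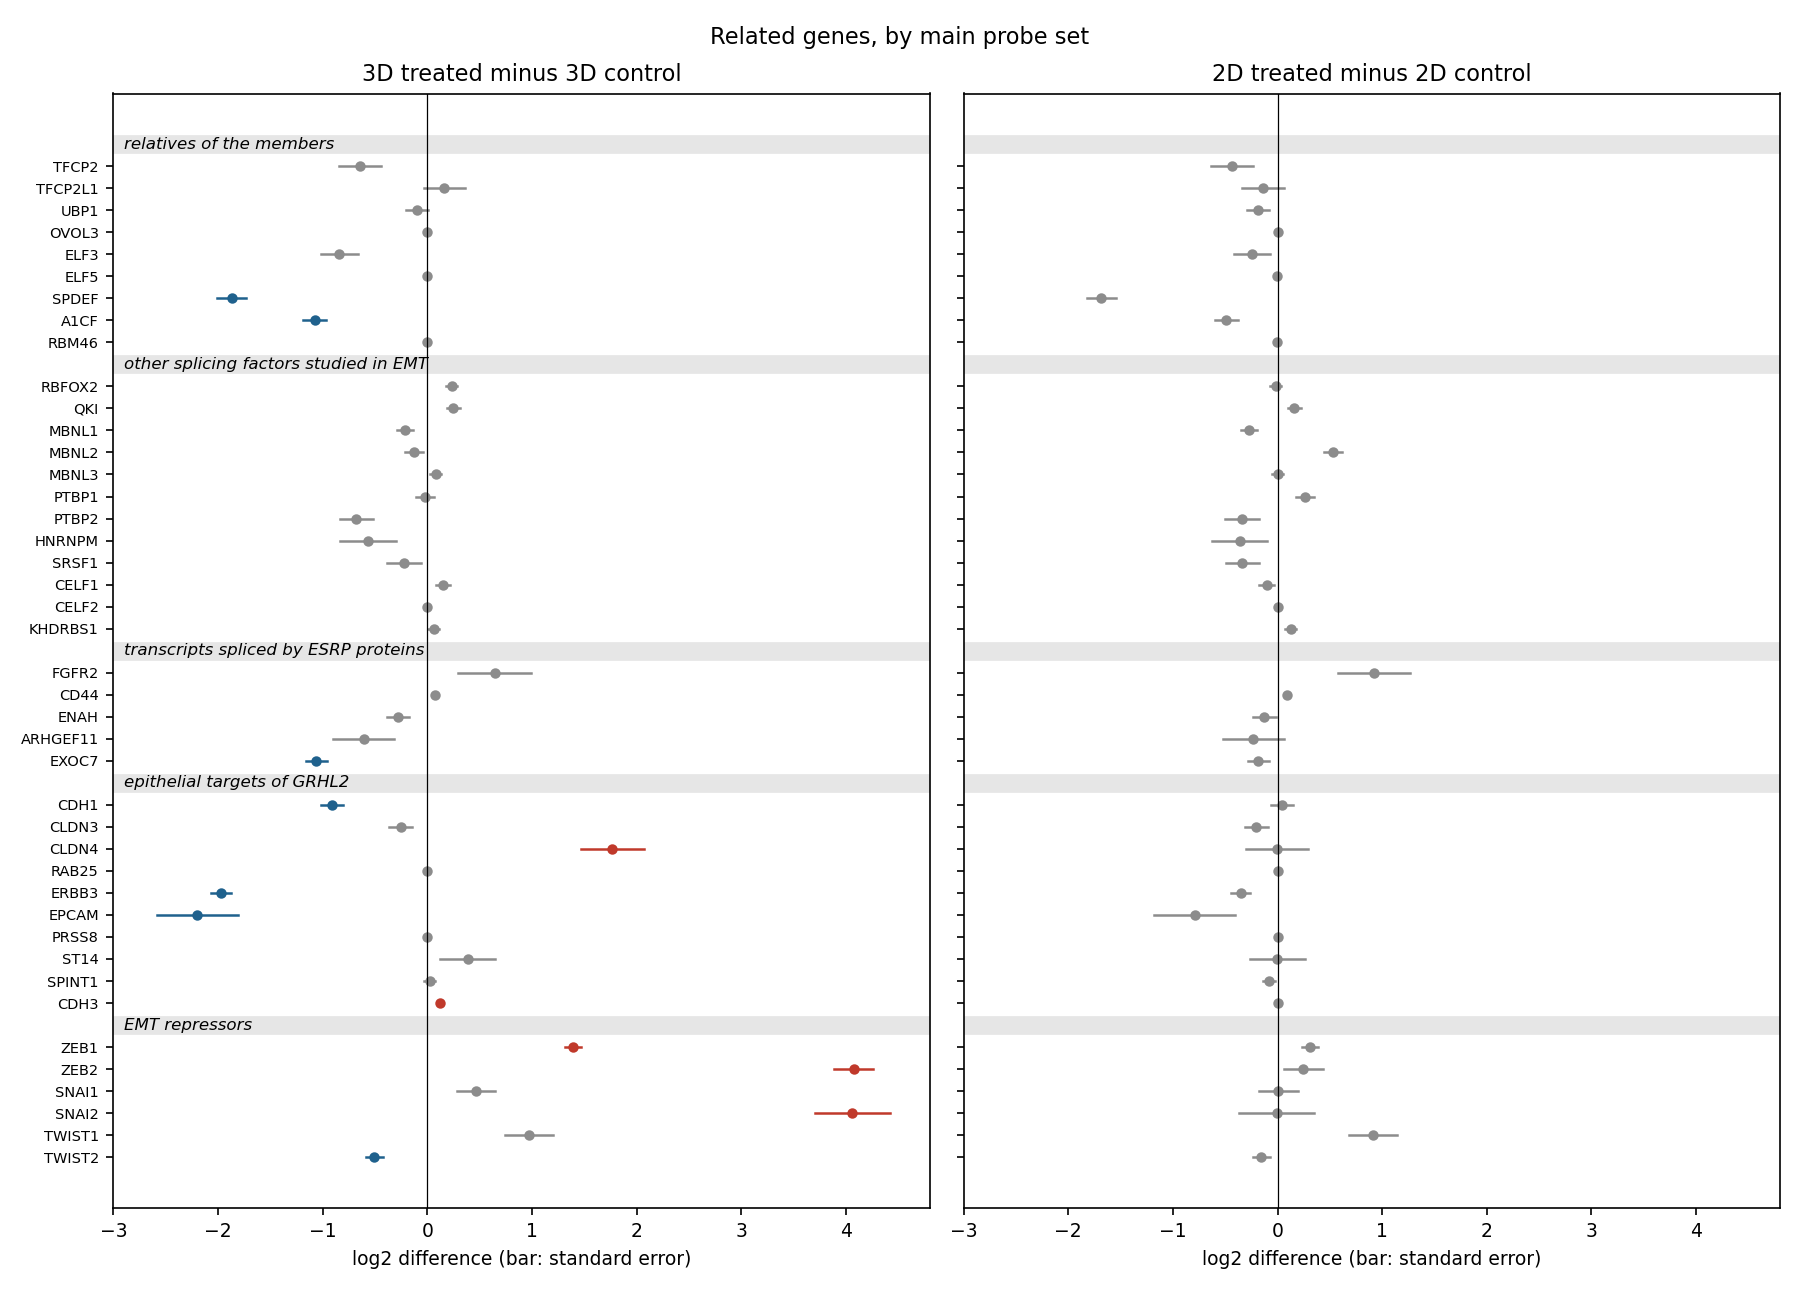
Log2 differences (horizontal axis, bars are standard errors) of 42 related genes by main probe set, 3D treated minus 3D control cultures on the left and 2D treated minus 2D control cultures on the right; blue genes were called lower, red genes higher and grey genes did not pass in limma. Calls stand only in the 3D panel, with EPCAM lowest at −2.20, and the ZEB2 point there is measured against controls near background.

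Of the 6 epithelial markers of A549, 4 were called lower in treated spheroids along with EHF and RBM47, namely KRT8, KRT18, EPCAM and CDH1 (−1.05, −0.57, −2.20 and −0.91, limma adjusted p = 0.0361, 0.00673, 0.0402 and 0.0155). The call of KRT8 ended in each of the 8 fits without 1 array (limma adjusted p up to 0.146) and that of KRT18 in none, and with the 3D arrays fitted alone both ended (0.156 and 0.0965). KRT7 read higher, at 12.44 and 12.05 in 3D treated cultures against 11.25 and 11.42 in 3D controls, and did not pass (0.91, limma adjusted p = 0.0592), and KRT19 did not pass either (−0.74, 0.0638). Between 3D and 2D controls KRT19 was called higher (1.42, limma adjusted p = 0.0216) and KRT18 lower (−0.40, 0.021), calls that ended in 6 and 4 of the 8 fits without 1 array. Of the 9 markers of other cell types, CD14 was called lower, at 6.05 and 5.28 in 3D treated cultures against 8.68 and 8.36 in 3D controls (−2.86, limma adjusted p = 0.0477), and its call ended in each of the 8 fits without 1 array and with the 3D arrays fitted alone (0.125). The other 8 were not called in any comparison. The part of these markers in the results for EHF and RBM47 was not tested.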

How the data were processed

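A549 cells were profiled on 8 Affymetrix U133 plus 2.0 arrays, 2 per group. The authors ran GCRMA to make the deposited log2 values, and its version is not given in the sources used here; the submitters' processing notes name limma 3.6.9. No further normalization was applied. Of 54675 probe sets, 62 controls were left out; 41091 name 1 gene, 1801 several and 11721 none in the platform annotation. Differences of 4 group means were fitted on all 8 arrays with limma 3.58.1 in R 4.3.3 (lmFit, eBayes; 4 residual and 0.347 prior degrees of freedom), with Benjamini-Hochberg adjustment over 54613 probe sets and a threshold of 0.05. The script was tested on simulated data. A fold against a group near background was taken against that group's array medians. The members and gene lists were chosen with earlier results of these data known. All members are named, with, for each list, genes that passed in the 3D comparison or differed most; ELF3, TFCP2L1, UBP1, RBFOX2, PTBP2, QKI, SRSF1, CELF1, KHDRBS1 and CD44 were also named after their values were seen. The 5 genes closest to EHF were ranked over probe sets that exceeded the median of 2 or more arrays. Promoter windows are RefSeq's, searched with Python 3.11.15, and plots were drawn with matplotlib 3.10.9. The alternatives were a replicate block, array medians subtracted, quantile normalization, dim probe sets left out, an intensity trend, only the arrays compared, the probe set with the largest difference, a difference of at least 1 and leaving out each array. The small number of arrays limits the precision of these values.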

Additional observations from a re-analysis of the deposited data

Results flagged for a closer look

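Among the members, 2 probe sets of RBM47 had a treatment effect in spheroids that differed from the effect in monolayers in limma's test of the difference itself. For 218035_s_at the log2 difference was −1.34 in 3D and −0.18 in 2D cultures, which differ by −1.16 (adjusted p = 0.0403). For 222496_s_at it was −1.57 in 3D and −0.17 in 2D cultures, which differ by −1.40 (adjusted p = 0.000227). Both effects were lower in 3D, and the arrays of 3D treated cultures lay below all others for both probe sets.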

How the results depend on the processing

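The number of members called in the 3D comparison was 2 in the fit reported, 0 with only the arrays compared and 1 with the probe set of the largest difference, and it ran from 1 to 2 with single arrays left out. In the 2D comparison it was 0 and ran from 0 to 1. For the difference between responses it was 1 in the fit reported, 0 with the probe set of the largest difference and 2 with dim probe sets left out, and ran from 0 to 2. For 3D against 2D controls it was 2 in the fit reported, 0 with only the arrays compared and 1 with a difference of at least 1, and ran from 0 to 2. Without 3D control replicate 1 the gene called beside RBM47 in 3D was OVOL2 (−0.18). In that fit OVOL2 was also the 1 member called for the responses (−0.18) and between controls (0.18), with neither EHF nor RBM47 called there. The call in 2D without 2D treated replicate 2 was GRHL1 (0.20), which in that fit was also the 1 call for the responses (−0.20). The remaining arrays then hold nearly identical values, so these calls rest on 1 array's reading near background.

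The labels do not say whether replicate numbers pair the arrays, and the correlations below do not settle it. Correlations of same-numbered deviations over 28188 probe sets were 0.283 between 2D treated and 2D control arrays and −0.015 to 0.090 between other groups. With the replicate number as a block, 2 members were called in 3D, 0 in 2D, 0 for the difference between responses and 1 between 3D and 2D controls. The RBM47 calls for the responses and between controls ended with the block (limma adjusted p = 0.0916 and 0.0642). So did the response calls of ERBB3, ZEB1 and SNAI2 (limma adjusted p = 0.0513, 0.0718 and 0.11), and that of ZEB2 held. Over all genes the block gave 2100 in place of 3235 calls in 3D, 14 in place of 39 in 2D, 226 in place of 645 for the responses and 902 in place of 2110 between controls.

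Directions turned only below the threshold. RBM47 in 2D was 0.56 with the probe set of the largest difference. With single arrays left out, RBM47 229440_at in 2D ran from −0.15 to 0.20 (below 0 without 2D control replicate 2 or 2D treated replicate 2), EHF 224189_x_at in 2D from −0.32 to 0.031 (above 0 without 2D treated replicate 2) and EHF 232360_at in 3D from −0.34 to 0.18 (above 0 without 3D treated replicate 2). Calls over all genes with only the arrays compared, after the dim filter and with single arrays left out were 529, 4958 and 1719 to 3715 in 3D, 6, 232 and 14 to 472 in 2D, and 254, 3969 and 1022 to 1383 between controls. For the responses they were 2114 after the filter and 557 to 2262 with arrays left out. A difference of at least 1 left 1608 in 3D, 17 in 2D, 380 for the responses and 869 between controls, and subtracting array medians gave 4221, 112, 1423 and 2863. The causes were not tested.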
